A study of Mus musculus with 12 samples.

Results

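The genes described here are 49 genes of DNA replication and cell division, chosen by name from the 54532 genes listed in the count table, and all 49 were found. They code for the replicative helicase and the proteins that load it (12 genes), for polymerases, the sliding clamp, its loader and the single-strand binding protein RPA (7), for nucleotide supply (3), for the copying of chromatin (4), for entry into S phase (4), for checkpoint signalling and repair (5), for mitotic cyclins, kinases and their regulators (9), and for chromosome and spindle proteins with an activator of the anaphase-promoting complex (5). They were compared between wounded and unwounded cells and between 2 cell fractions. The data were counts per gene from 12 poly(A) RNA libraries of mouse keratinocytes in culture, cells that make up most of the epidermis, in 4 groups of 3 biological replicates.

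All cells carried the genotype WT DP-BirA(1-584), in which residues 1 to 584 of desmoplakin, a protein of the desmosome, are fused to the biotin ligase BirA. They were grown to confluence without added calcium, and calcium and doxycycline at 2 µg/mL then started differentiation and the fusion protein, so the unwounded controls were also differentiating, confluent cells. Cells were scratch wounded or left unwounded and then given biotin for 16 h. RNA under translation was collected from sucrose gradients and passed over neutravidin, which binds biotin. The bound RNA makes the cortical fraction, near the fusion protein at the cell cortex, and the RNA of the depleted remainder is what the labels name total. The 4 groups are these 2 fractions of unwounded and of wounded cells. No label says which cell isolate or how many cultures the replicates came from, so the p-values measure the spread between these libraries.

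Cells copy their genome once per division in S phase and separate the copies in mitosis. E2F factors are known to raise the messenger RNAs of the replication machinery before S phase. A later wave led by FOXM1, B-MYB and the MuvB complex raises the mitotic genes through CHR elements and CCAAT boxes. In the epidermis, basal keratinocytes divide and differentiating cells leave the cycle. At a wound, cells at the front are known to migrate while division is mostly found behind the front.

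The libraries held 8980013 to 23457548 counts, of which 27918 to 71629 fell on the 49 genes. Keratinocyte markers were abundant (10 of 10 listed genes tested, summed to 11100 to 21400 CPM, counts scaled to a common library size). Fibroblast (2 of 8 genes tested, Dcn and Thy1 at 0), melanocyte (2 of 6), endothelial (1 of 4) and immune markers (0 of 6, with 3 at 0 in every library) summed to at most 10.4 CPM in any library. The library wounded total replicate 1 stood apart: it held a count for 13117 genes where the other 11 held counts for 14393 to 16867, and it took a score of 112 on the first principal component where the others ran from -19.7 to 4.35. Results that rest on it are given with and without it. In bulk libraries such as these, fewer cells expressing a gene and less of its RNA per cell cannot be told apart. No library holds RNA from before the gradients. A lower level of a messenger RNA and a smaller part of it under translation therefore cannot be told apart either.

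Promoter windows describe these genes independently of their counts. Windows from 250 bases before to 50 bases after the annotated start (300 bases, RefSeq, GRCm38.p6) were at hand for 39 of the 49 genes. The 5 shown are those of the genes that passed the wound test below and have a window. Capitals mark every match, on either strand, to an E2F motif (TTTCCCGC, TTTCGCGC, TTTGCCGC or TTTGGCGC), a CHR (TTTGAA or TTCGAA) or a CCAAT box (CCAAT, written ATTGG on the other strand), and no matches overlap in these 5 windows.
Cdk1, chr10:69352863-69353162, minus strand: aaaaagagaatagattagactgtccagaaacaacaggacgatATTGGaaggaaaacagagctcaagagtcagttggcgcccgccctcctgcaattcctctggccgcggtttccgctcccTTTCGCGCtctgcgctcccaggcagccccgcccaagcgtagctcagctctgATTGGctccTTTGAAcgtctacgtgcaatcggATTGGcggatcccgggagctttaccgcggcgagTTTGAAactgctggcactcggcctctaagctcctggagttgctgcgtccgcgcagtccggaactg
Asf1b, chr8:83955444-83955743, plus strand: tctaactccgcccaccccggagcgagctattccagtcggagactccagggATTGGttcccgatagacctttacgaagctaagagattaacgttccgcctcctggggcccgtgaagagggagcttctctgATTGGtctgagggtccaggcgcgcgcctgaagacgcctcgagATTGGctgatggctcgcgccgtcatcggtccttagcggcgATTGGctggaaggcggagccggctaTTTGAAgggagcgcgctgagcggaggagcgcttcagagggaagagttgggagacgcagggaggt
Rrm2, chr12:24708004-24708303, plus strand: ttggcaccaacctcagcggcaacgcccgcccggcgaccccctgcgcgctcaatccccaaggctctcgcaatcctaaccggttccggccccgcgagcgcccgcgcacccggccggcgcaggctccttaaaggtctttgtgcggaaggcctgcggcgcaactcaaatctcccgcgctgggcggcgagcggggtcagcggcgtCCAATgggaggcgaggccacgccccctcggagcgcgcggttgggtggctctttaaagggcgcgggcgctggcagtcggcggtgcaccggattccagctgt
Topbp1, chr9:103305077-103305376, plus strand: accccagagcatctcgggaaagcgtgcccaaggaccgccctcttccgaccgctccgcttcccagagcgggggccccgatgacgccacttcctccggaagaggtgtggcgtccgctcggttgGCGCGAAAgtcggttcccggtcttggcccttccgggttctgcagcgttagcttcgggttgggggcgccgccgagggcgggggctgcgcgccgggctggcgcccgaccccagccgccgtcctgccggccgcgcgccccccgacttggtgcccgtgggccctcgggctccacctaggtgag
Pold1, chr7:44548766-44549065, minus strand: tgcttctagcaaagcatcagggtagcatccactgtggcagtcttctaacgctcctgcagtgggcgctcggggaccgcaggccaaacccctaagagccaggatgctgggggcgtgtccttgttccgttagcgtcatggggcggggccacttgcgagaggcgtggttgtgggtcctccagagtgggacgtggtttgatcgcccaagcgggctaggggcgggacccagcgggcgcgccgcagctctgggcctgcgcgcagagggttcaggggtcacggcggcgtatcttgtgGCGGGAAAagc
The Cdk1 window holds 1 E2F match, 2 CHR matches and 3 CCAAT boxes. The Asf1b window holds 4 CCAAT boxes and 1 CHR that begins 14 bases before the start. Topbp1 and Pold1 each hold 1 E2F match and neither of the other motifs, and Rrm2 holds 1 CCAAT box alone. Among the 39 genes, 13 (33.3%) hold an E2F match against 2.6% of 27025 genes with a window, 15 (38.5%) hold a CHR against 21.7%, and 27 (69.2%) hold a CCAAT box against 41.1%. The E2F match was in 6 of the 9 helicase windows, and the CHR in 5 of the 6 windows of mitotic cyclins, kinases and regulators and in 3 of the 4 of spindle proteins. A match is a description of letters and not evidence of binding, and no window was given for Rhno1 or Foxm1.

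Per unit of length the most abundant of the 49 messenger RNAs were mitotic. In unwounded total libraries Cdc20, which activates the anaphase-promoting complex, had 104.7 ± 18.7 FPKM (fragments scaled by gene length and library size, mean ± SD, n = 3). Cyclin B2 (Ccnb2, 53.2 ± 7.499), polo-like kinase 1 (Plk1, 52.2 ± 7.11) and the mitotic kinase Cdk1 (46.0 ± 0.759 FPKM) followed, and Ccnb2 and Plk1 lay within 1 SD of each other. The clamp Pcna stood at 27.6 ± 1.06 FPKM and the helicase subunit Mcm2 at 2.69 ± 0.133 FPKM. At the low end were the S phase cyclin Ccne2 (0.301 ± 0.0300 FPKM), the activator E2f2 (0.611 ± 0.0601) and the checkpoint kinase Atr (0.664 ± 0.0645 FPKM). Cdc20 was also the highest of the 49 in each of the other groups, and Ccne2 or E2f2 the lowest.

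Summed over the 49 genes, the FPKM was 691, 720 and 797 in the unwounded total libraries and 662, 678 and 682 in the wounded total libraries. Every wounded library lay below every unwounded one, with group means of 674 and 736 FPKM. In the cortical fraction the sum was 737 to 751 in unwounded and 715 to 724 in wounded libraries, again without overlap and with a smaller gap. The mitotic cyclins, kinases and regulators made up most of the drop in the total fraction, with 234.6 to 265.0 FPKM before and 200.7 to 212.8 FPKM after wounding. The 12 helicase genes did not share it: their sum was 99.8 to 108 FPKM in unwounded and 109 to 111 FPKM in wounded total libraries. Checkpoint and repair genes went from 15.1 to 16.9 FPKM down to 10.3 to 12.5 FPKM in the total fraction, and from 13.2 to 13.5 up to 14.3 to 14.7 FPKM in the cortical fraction. Much of this was Rhno1, whose mean went from 7.36 to 4.09 FPKM in total and from 5.56 to 6.92 FPKM in cortical libraries. The mean of Topbp1 went down in both, from 4.38 to 3.36 and from 4.47 to 3.82 FPKM. In cortical libraries Atr was near level (0.743 and 0.738 FPKM), and Chek1 (1.67 to 1.92) and Brca1 (0.893 to 1.08 FPKM) went up. The cortical gap depends on the unit: summed as CPM, without the scaling by gene length, the 49 genes held 2800 to 2858 in unwounded and 2817 to 2866 in wounded cortical libraries, which overlap. The total libraries stayed apart in CPM as well, with 2549 to 2912 before and 2486 to 2524 after wounding. As a plain share of each library's counts, without the scaling factors behind CPM, the reverse held. The total libraries then overlapped, with 0.232% to 0.285% before and 0.208% to 0.266% after wounding. The cortical libraries did not, with 0.305% to 0.313% before and 0.295% to 0.301% after wounding. These sums and shares are given as levels and were not tested.

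**Figure D1:**
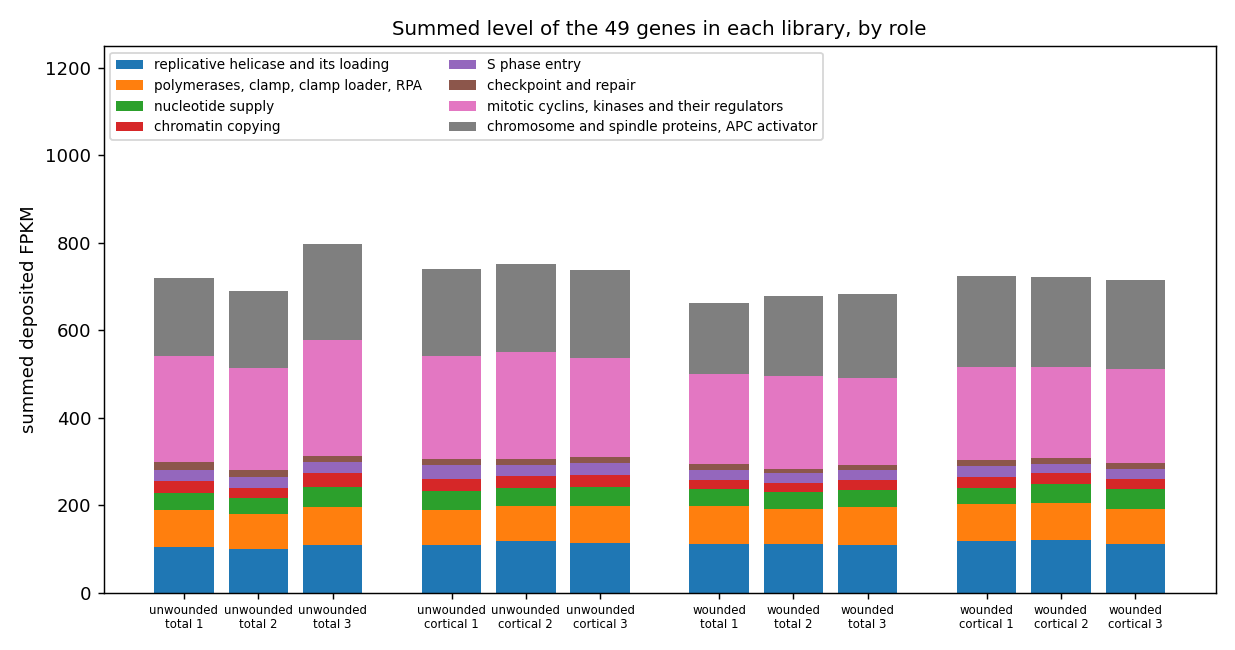
Deposited FPKM summed over the 49 genes (y axis) in each of the 12 libraries (x axis), stacked by role. The wounded total bars end between 662 and 682 FPKM, below the unwounded total bars at 691 to 797 FPKM.

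In the total fraction, wounding lowered a few of the 49 messenger RNAs, while most did not pass the test. By edgeR's quasi-likelihood test with Benjamini-Hochberg adjustment over the 13571 genes tested, at adjusted p under 0.05, 6 of the 49 fell (12.2%) and 1 rose (2.04%). Among all genes tested 7.2% fell and 8.39% rose. The 6 were the histone chaperone Asf1b, the ATR activators Rhno1 and Topbp1, the kinase Cdk1, the transcription factor Foxm1 and the ribonucleotide reductase subunit Rrm2, and the gene that rose was the polymerase delta subunit Pold1. The estimate was below 0 for 37 of the 49 genes, with a median log2 fold change of -0.18 against -0.03 over all genes tested. The 3 wounded libraries all lay below the 3 unwounded ones for 15 genes (30.6%, against 17.6% of all genes) and above them for 6 (12.2%, against 14.5%). Scaling by library size alone gave 8 lower and 0 higher (against 8.13% and 5.22% of all genes). Removing a gene length trend from each library gave 4 lower and 5 higher (against 4.89% and 14.1%). Without unwounded total replicate 1 (against 3.74% of all genes lower and 4.25% higher) or wounded total replicate 3 (against 4.84% and 5.07%) the fit called 4 lower and 0 higher.

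**Figure D2:**
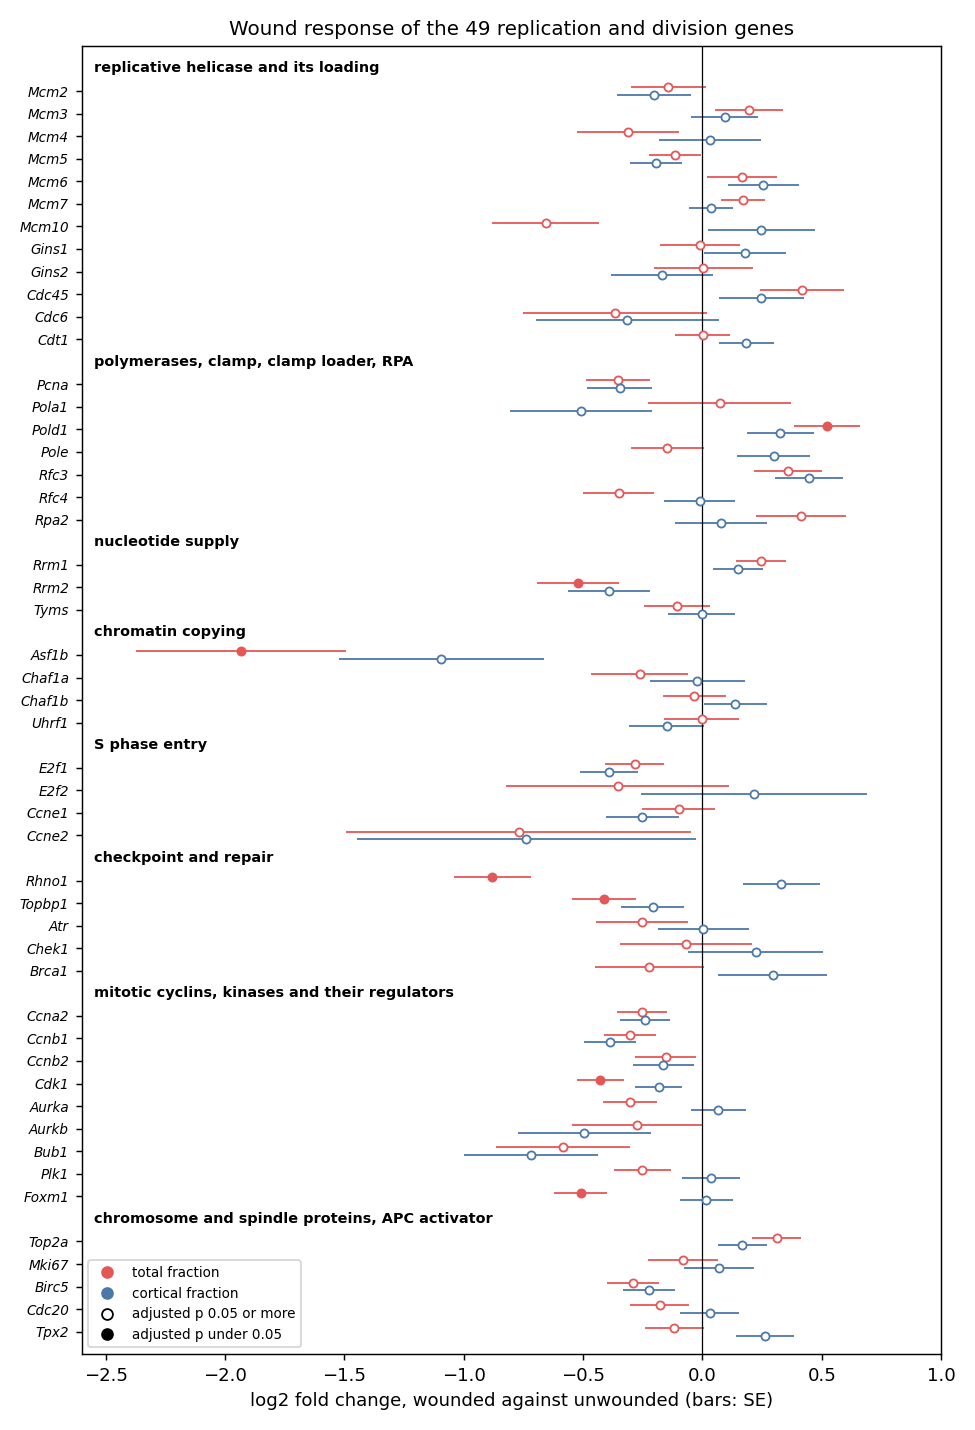
Log2 fold change of wounded against unwounded libraries (x axis, bars are the SE) for each of the 49 genes (y axis, grouped by role) in the total (red) and cortical (blue) fractions, with filled points at adjusted p under 0.05. The 9 mitotic cyclin, kinase and regulator genes all lie left of 0 in the total fraction, and no blue point is filled.

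Without wounded total replicate 1 the same fit called 11 of the 49 lower (22.4%, against 11.5% of all genes) and 3 higher (6.12%, against 13.4%). The 7 genes called with all libraries were among these 14. Added on the lower side were Pcna, the chromatin assembly subunit Chaf1a, cyclin B1 (Ccnb1) and the mitotic kinases Aurkb and Bub1. Of the exon bases of Chaf1a, 52.5% also belong to Ubxn6 on the other strand, whose reads these libraries cannot tell apart. On the higher side the clamp loader subunit Rfc3 and the DNA topoisomerase Top2a were added. The library was not near its 2 partners for several of these genes: Asf1b had 13 counts where the other wounded total libraries predict 98.4, Aurkb had 991 where they predict 386, and Bub1 had 393 where they predict 165. Its part in each result was not tested beyond leaving it out.

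Of the 5 checkpoint and repair genes 2 fell and 0 rose in the total fraction, against 7.2% and 8.39% of all genes. Rhno1 (chr6:128357000-128362911, minus strand), which binds the checkpoint clamp and TOPBP1 to switch on the kinase ATR, stood at 42.6, 39.0 and 30.9 CPM in unwounded total libraries and 16.1, 20.2 and 24.9 CPM in wounded ones. The groups did not overlap, and the log2 fold change was -0.88 (SE 0.16, adjusted p = 0.00153). Topbp1 (chr9:103305215-103350428), the partner that touches ATR itself, had 48.9, 44.3 and 57.0 CPM before and 44.98, 32.0 and 35.8 CPM after wounding. The highest wounded library lay above the lowest unwounded one, and the fall of 0.41 on the log2 scale (SE 0.13, adjusted p = 0.0436) passed in 6 of 24 alternative analyses. With 1 library left out it passed only without unwounded total replicate 2 or wounded total replicate 1, and the adjusted p otherwise reached up to 0.195, without wounded total replicate 2. The kinases Atr (-0.25, adjusted p = 0.428) and Chek1 (-0.07, adjusted p = 0.905) and the repair factor Brca1 (-0.22, adjusted p = 0.580) did not pass.

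Of the exon bases of Rhno1, 23.4% also belong to the gene models Gm26770 and Gm44371 on the other strand. The libraries do not keep the strand, so reads from these bases cannot be assigned. Rhno1 and Foxm1 lie head to head on chromosome 6, with starts 56 bases apart.

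Among the mitotic cyclins, kinases and regulators, 2 of 9 fell and 0 rose, against 7.2% and 8.39% of all genes. All 9 estimates were below 0 (median -0.30), as were 7052 of the 13571 over all genes tested (median -0.03). Cdk1 (chr10:69335146-69352938, minus strand), the kinase that drives entry into mitosis, had 235, 231 and 227 CPM in unwounded and 160, 192 and 163 CPM in wounded total libraries. Its fall of 0.43 on the log2 scale (SE 0.10, adjusted p = 0.00828) was wider than the spread of either group. The call was kept in 23 of 24 alternatives and missed the threshold in a fit to only the groups compared (adjusted p = 0.0610). Foxm1 (chr6:128362967-128376146, plus strand), which switches on many mitotic genes, went from 70.9, 64.7 and 60.7 CPM to 41.8, 44.4 and 51.8 CPM, again without overlap (-0.51, SE 0.11, adjusted p = 0.00543). Cyclin B1, the partner of CDK1, had 86.7, 86.1 and 97.1 CPM before and 76.4, 74.7 and 67.5 CPM after wounding. The groups did not overlap, but the difference of -0.30 (SE 0.11) missed the threshold (adjusted p = 0.0700), and it passed without wounded total replicate 1 (-0.34, adjusted p = 0.0292). Without that library 5 of the 9 genes fell, against 11.5% of all genes. Among them were Bub1 (-1.13, adjusted p = 2.45e-04) and Aurkb (-0.88, adjusted p = 3.38e-04), whose values with all libraries were -0.58 (adjusted p = 0.178) and -0.27 (adjusted p = 0.573).

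In chromatin copying 1 of 4 genes fell, against 7.2% of all genes. Asf1b (chr8:83955507-83970197), which carries histones H3 and H4 for deposition behind the replication fork, had 18.6, 13.9 and 15.0 CPM in unwounded total libraries and 0.771, 5.05 and 6.62 CPM in wounded ones. Every wounded library was below every unwounded one. The log2 fold change was -1.93 (SE 0.44, adjusted p = 0.00708), and -1.44 without the replicate that stood apart (adjusted p = 1.48e-04). This call was kept in 23 of 24 alternatives and missed the threshold in a fit to only the groups compared (adjusted p = 0.0594). The chromatin assembly subunits Chaf1a (-0.26, adjusted p = 0.430) and Chaf1b (-0.03) and the methylation maintenance factor Uhrf1 did not pass.

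Of the 3 nucleotide supply genes 1 fell (against 7.2% of all genes), a subunit of ribonucleotide reductase, the enzyme that makes deoxynucleotides. Rrm2, the subunit whose level limits the enzyme in S phase, had 40.8, 33.7 and 48.0 CPM before and 30.0, 27.9 and 27.4 CPM after wounding in the total fraction (-0.52, SE 0.17, adjusted p = 0.0492). This call is at the threshold and was kept in 8 of 24 alternatives. With 1 library left out it passed only without unwounded total replicate 2, wounded total replicate 1 or wounded cortical replicates 1 or 3, and the adjusted p otherwise reached up to 0.207, without unwounded total replicate 3. Rrm1, the large subunit, had a log2 fold change of 0.25 (adjusted p = 0.127), and the thymidylate synthase Tyms one of -0.11 (adjusted p = 0.669).

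The genes of the replication machinery were counted against the same 7.2% of all genes lower and 8.39% higher. None of the 12 helicase and loading genes passed in either direction, 6 of their 12 estimates were below 0, and their median was -0.01. A list of 12 genes is too short for 0 calls to set it apart from these shares. Of the 7 genes of polymerases, clamp, clamp loader and RPA 1 rose and 0 fell. Without wounded total replicate 1, 2 of these 7 rose and 1 fell, against 13.4% and 11.5% of all genes. Mcm2 had 18.6, 18.5 and 20.03 CPM in unwounded and 18.3, 15.2 and 18.3 CPM in wounded total libraries (-0.14, SE 0.16, adjusted p = 0.612), a small gap beside its error. The extremes were the origin firing factor Mcm10 (-0.66, adjusted p = 0.0580) and the helicase cofactor Cdc45 (0.42, adjusted p = 0.125). Pold1 (chr7:44532746-44548849, minus strand), the catalytic subunit of the lagging-strand polymerase, rose from 46.3, 51.3 and 69.7 CPM to 78.03, 74.0 and 88.0 CPM (0.52, SE 0.14, adjusted p = 0.0178), without overlap. It missed the threshold without unwounded total replicate 1 (adjusted p = 0.118), unwounded total replicate 2 (0.0850) or wounded total replicate 3 (0.0735). Pcna, the ring that tethers polymerases to DNA, had 67.5, 65.1 and 69.3 CPM in unwounded libraries and 67.2, 46.1 and 44.7 CPM in wounded ones, where replicate 1 alone stayed at the unwounded level. With it the change was -0.35 (adjusted p = 0.0872), and without it -0.57 (adjusted p = 3.91e-04).

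The general proliferation marker Mki67 did not pass the test, with 120, 93.0 and 131 CPM in unwounded and 133, 93.7 and 99.2 CPM in wounded total libraries (-0.08, SE 0.15, adjusted p = 0.776), with wide overlap and a sign that depends on the analysis. Top2a, which untangles DNA in S phase and mitosis, had 150, 132 and 169 CPM before and 183, 188 and 189 CPM after wounding. The groups did not overlap, and the difference of 0.31 (SE 0.10) just missed the threshold (adjusted p = 0.0522) and passed in 10 of 24 alternatives. The survivin gene Birc5 (-0.29, adjusted p = 0.0805), Cdc20 (-0.18, adjusted p = 0.377) and the spindle assembly factor Tpx2 (-0.12, adjusted p = 0.588) did not pass, nor did any of the 4 S phase entry genes, whose median was -0.32.

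**Figure D3:**
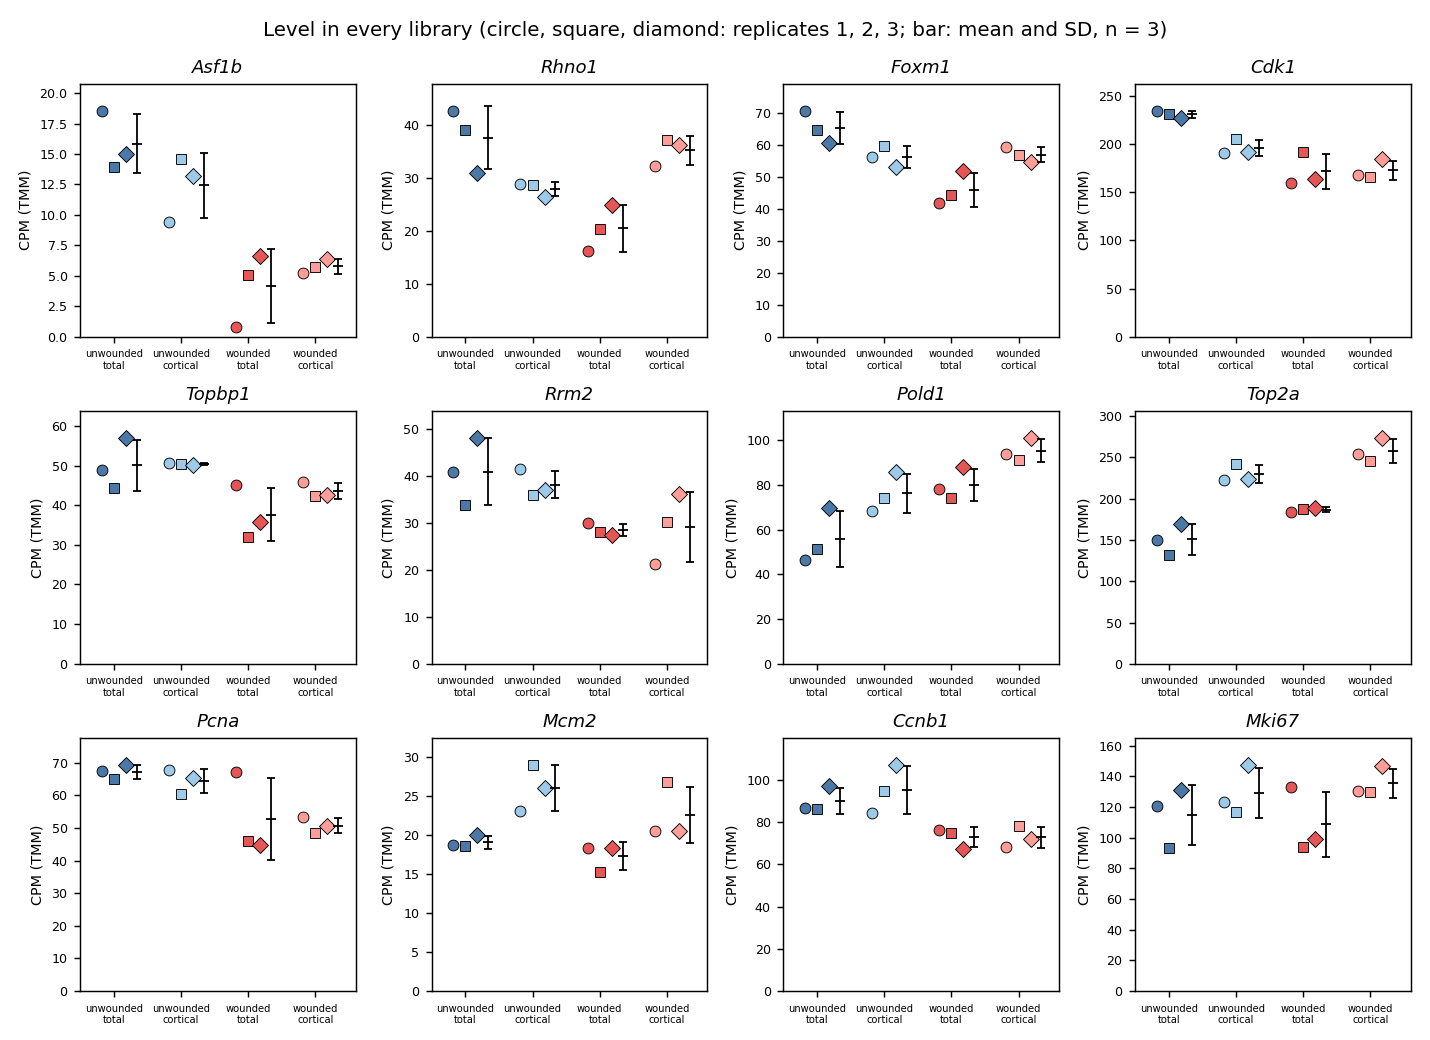
CPM (y axis, TMM-scaled) of 12 of the genes in every library (x axis, 4 groups), with symbols for replicates 1 to 3 and the group mean with SD beside them. Asf1b, Rhno1, Foxm1 and Cdk1 lie lower in every wounded total library, while Rhno1 and Foxm1 in the wounded cortical libraries do not.

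In the cortical fraction, wounding gave 0 calls among the 49 genes by edgeR's quasi-likelihood test, against 1.6% of all genes higher and 0.884% lower. At an unadjusted p under 0.05, 3 genes were higher (6.12%, against 9.78% of all genes) and 7 lower (14.3%, against 7.47%), and DESeq2 called 2 lower and 0 higher (against 2.52% and 2.9% of all genes). The median log2 fold change was 0.02, the same as over all genes, and 23 of 49 estimates were below 0. The cortical libraries did not overlap for 10 genes on the lower side (20.4%, against 11.5% of all genes) and 8 on the higher side (16.3%, against 15.4%). Wounded total replicate 1 enters this comparison only through the shared filter, scaling and estimate of the spread. Without it 6 genes fell (12.2%, against 3.6%) and 1 rose (2.04%, against 5.47%): Pcna, Asf1b, E2f1, Ccnb1, Aurkb and Bub1 were lower and Rfc3 was higher. A fit to the 6 cortical libraries alone called 7 lower and 3 higher, against 5.02% and 6.27% of all genes.

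Cdk1 had 191, 206 and 192 CPM in unwounded and 168, 166 and 184 CPM in wounded cortical libraries, again without overlap but with a smaller difference (-0.18, adjusted p = 0.365). Asf1b had a log2 fold change of -1.09 (SE 0.43, adjusted p = 0.193, and 0.00291 without wounded total replicate 1) and Ccnb1 one of -0.39 (adjusted p = 0.0707, and 0.0174 without it). Ccnb1 stood at 84.2, 95.0 and 107 CPM in unwounded and 68.1, 78.2 and 72.2 CPM in wounded cortical libraries. Pcna had 67.7, 60.5 and 65.5 CPM before and 53.3, 48.5 and 50.5 CPM after wounding, with a value of -0.35 in both fractions (cortical adjusted p = 0.189). Neither gene's cortical groups overlapped. Mcm2 had 23.1, 28.9 and 26.0 CPM before and 20.5, 26.7 and 20.5 CPM after wounding (-0.20, adjusted p = 0.555). Mki67 had 123, 117 and 147 CPM before and 130, 129 and 146 CPM after wounding (0.07, adjusted p = 0.868). Both overlapped, while Top2a, with 254, 246 and 274 CPM in wounded cortical libraries, lay above its unwounded values of 222, 243 and 224 CPM and did not pass (0.17, adjusted p = 0.445). Foxm1 stood at 56.3, 59.8 and 53.1 CPM before and 59.6, 56.9 and 54.8 CPM after wounding, with full overlap (0.02, adjusted p = 0.965). Rhno1 had 28.7, 28.6 and 26.3 CPM before and 32.1, 37.2 and 36.1 CPM after wounding, all higher than before, and this difference of 0.33 (SE 0.16) did not pass (adjusted p = 0.304).

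Whether the fractions responded differently was tested as the cortical wound response minus the total one. Only Rhno1 of the 49 passed (0.0221% of all genes higher and 0.103% lower). Its responses of 0.33 and -0.88 differed by 1.21 (SE 0.23, adjusted p = 0.0498), a value at the threshold that was kept in 9 of 23 alternatives. Without wounded total replicate 1 the difference was 1.07 (adjusted p = 0.00624), and without unwounded total replicate 1 or 2 the adjusted p was 0.238 or 0.197. With 1 library left out the call was kept only without unwounded total replicate 3 or wounded total replicates 1 or 3. Other differences were those of Foxm1 (0.53, SE 0.16, adjusted p = 0.310) and Mcm10 (0.90, SE 0.32, adjusted p = 0.394), and neither passed. For Cdk1 the difference was 0.24 (SE 0.14, adjusted p = 0.656). For the other 48 genes the data therefore do not show that the wound response differed between the fractions, and the larger number of calls in the total fraction is no such test.

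Within a condition, the cortical and total fractions differed for some of the 49 genes. In unwounded cells 4 genes (8.16%) were higher and 2 (4.08%) lower in the cortical fraction, against 6.62% and 7.59% of all genes. The topoisomerase Top2a had 222, 243 and 224 CPM in cortical and 150, 132 and 169 CPM in total libraries (0.61, SE 0.10, adjusted p = 0.00117). Rrm1, with 214, 225 and 221 CPM in cortical and 151, 134 and 175 CPM in total libraries, did not overlap either. Rrm1 (0.52, adjusted p = 0.00352), Mcm3 (0.54, adjusted p = 0.0163) and Pold1 (0.45, adjusted p = 0.0404) were also higher, and Birc5 (-0.45, adjusted p = 0.00977) and the helicase subunit Gins1 (-0.59, adjusted p = 0.0265) lower. In wounded cells 6 genes (12.2%) were higher and 2 (4.08%) lower, against 7.62% and 8.03%. Top2a (0.47, adjusted p = 0.00679), Rrm1 (0.42, adjusted p = 0.0121), Mcm3 (0.44, adjusted p = 0.0440) and Birc5 (-0.39, adjusted p = 0.0237) were on these lists too. With them were Tpx2 (0.60, adjusted p = 0.00380), Rhno1 (0.78, adjusted p = 0.00422) and the licensing factor Cdt1 (0.50, adjusted p = 0.00828), which were higher, and Gins2 (-0.77, adjusted p = 0.0216), which was lower and shares 67.3% of its exon bases with Gse1.

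Without wounded total replicate 1 the counts were 9 higher and 7 lower in unwounded cells (against 10.1% and 12.3% of all genes) and 11 higher and 3 lower in wounded cells (against 12.1% and 12.6%). With scaling by library size alone, which moves the median of all genes to 0.19 in unwounded and to 0.25 in wounded cells, the splits were 9 higher and 0 lower (against 11.7% and 3.46% of all genes), and 16 higher and 0 lower (against 16.2% and 3.83%). Of 24 alternatives, the calls in unwounded cells were kept in 24 (Top2a, Rrm1), 21 (Mcm3, Birc5), 18 (Gins1) and 13 (Pold1). That of Pold1 was lost without any 1 cortical replicate of either condition, or without unwounded total replicates 1 or 2. In wounded cells they were kept in 24 (Tpx2, Rhno1, Cdt1), 23 (Top2a), 22 (Rrm1), 18 (Gins2), 17 (Birc5) and 10 (Mcm3). These cortical-to-total comparisons share libraries with the wound comparisons and are not independent of them.

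The cortical-to-total difference ran with the length of the coding sequence. Across the 49 genes Spearman's rho was 0.616 in unwounded and 0.538 in wounded cells, given as a description over genes that share the same libraries. The 24 genes with coding sequences of 420 to 1671 bases had a median difference of -0.22 in unwounded cells, and the 25 genes of 1698 to 9531 bases one of 0.15. In wounded cells these medians were -0.03 and 0.32. The genes called higher in the cortical fraction had a median coding length of 2876 bases in unwounded and 2306 bases in wounded cells, and those called lower 504 and 488 bases. The fit with a length trend removed from each library used the gene length behind the FPKM. It did not use the coding length, for which no such fit was made. In the gene length fit 5 of these 14 calls were lost. In wounded cells they were those of Top2a (0.20, adjusted p = 0.183), Rrm1 (0.11, adjusted p = 0.522) and Mcm3 (0.37, adjusted p = 0.131), and in unwounded cells those of Gins1 (-0.34, adjusted p = 0.233) and Pold1 (0.43, adjusted p = 0.0542). With the trend in place the log2 fold changes of Mcm3 and Pold1 were 0.44 and 0.45. The calls of Top2a, Rrm1, Mcm3 and Birc5 in unwounded cells and of Tpx2, Rhno1, Cdt1, Gins2 and Birc5 in wounded cells were kept, with adjusted p of 0.00355 to 0.0268. Rhno1 has a coding sequence of 705 bases and lies among the highest in wounded cells.

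**Figure D4:**
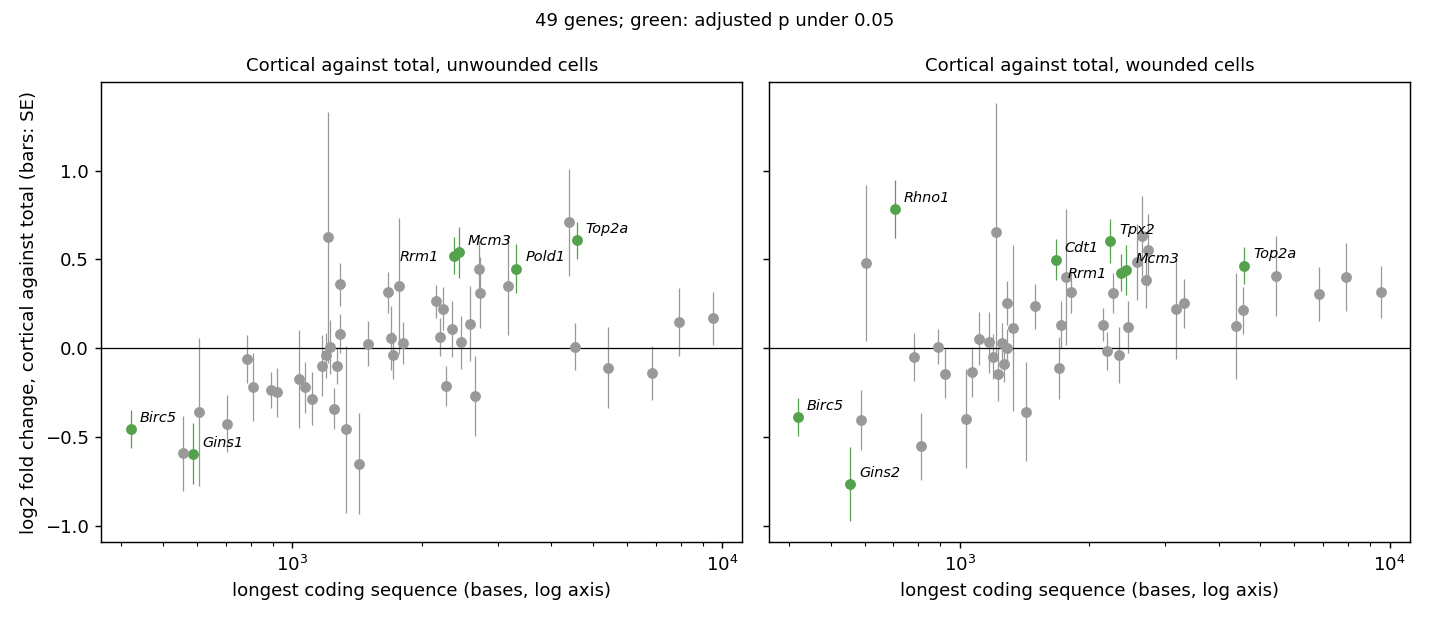
Log2 fold change of cortical against total libraries (y axis, bars are the SE) against the longest coding sequence of each of the 49 genes (x axis, log scale), in unwounded (left) and wounded (right) cells, with green points at adjusted p under 0.05. Points rise from left to right, with a Spearman's rho of 0.616 and 0.538, and Rhno1, at 0.78, is the highest point on the right.

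Related cell cycle genes outside the 49 were counted in the same way in the total fraction. Of 51 other replication genes 8 fell and 2 rose, of 58 other mitosis genes 10 fell and 1 rose, and of 10 G1 cyclins, their kinases and Myc 5 fell and 0 rose, with medians of -0.25, -0.26 and -0.42. Of 17 tested CDK inhibitors, pocket proteins and repressor E2Fs 4 fell and 1 rose (median -0.13). Among all genes tested 7.2% fell and 8.39% rose. Without wounded total replicate 1, when 11.5% of all genes fell and 13.4% rose, the numbers that fell were 14, 28, 6 and 5 and those that rose 4, 3, 0 and 2. Cyclin D1 (Ccnd1), which starts the G1 programme, went from 29.6, 34.3 and 28.8 CPM to 16.1, 16.7 and 16.9 CPM (-0.90, adjusted p = 5.33e-04). Its kinase partners Cdk6 (-0.63, adjusted p = 0.00147) and Cdk4 (-0.44, adjusted p = 0.00459) fell as well, as did the transcription factor gene Myc (-0.75, adjusted p = 0.0164). Myc missed the threshold without unwounded total replicate 2 (adjusted p = 0.0559), wounded total replicate 2 (0.0725) or wounded total replicate 3 (0.0730).

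Among the inhibitors, Cdkn1a, the p21 gene, fell from 294, 303 and 283 CPM to 226, 227 and 231 CPM (-0.36, adjusted p = 0.0125), and Cdkn1b, the p27 gene, gave -0.13 (adjusted p = 0.457). The fork protector Tipin (-0.99, adjusted p = 1.67e-04), the thymidine kinase Tk1 (-0.45, adjusted p = 0.00770) and the late cell cycle gene Gtse1 (-0.95, adjusted p = 4.79e-04) fell in each of 24 alternatives. The dUTPase gene Dut (-0.45, adjusted p = 0.0139) and the clamp unloader gene Atad5 (-1.64, adjusted p = 0.0172) fell among replication genes, and Psrc1 (-0.67, adjusted p = 7.88e-04), Ckap2l (-0.64, adjusted p = 0.00105) and the spindle checkpoint gene Mad2l1 (-0.58, adjusted p = 0.00147) among mitosis genes. The repressors E2f4 (-0.78, adjusted p = 0.00122) and E2f8 (-0.61, adjusted p = 0.0118) and the inhibitor Cdkn2c (-0.50, adjusted p = 0.0193) fell too. The calls of Psrc1, Ckap2l, Mad2l1 and E2f4 were kept in all 24 alternatives. With 1 library left out, those of Dut, Atad5, E2f8 and Cdkn2c were lost without unwounded total replicate 2 (Dut, E2f8, Cdkn2c), unwounded total replicate 1 (Atad5, Cdkn2c), wounded total replicate 2 (Atad5) or wounded total replicate 3 (Atad5, E2f8, Cdkn2c). The ligase Lig1, which seals Okazaki fragments made with polymerase delta, rose (0.81, adjusted p = 5.97e-04). The phosphatase gene Cdc25b (0.41, adjusted p = 0.0173), the antiproliferative gene Btg1 (0.37, adjusted p = 0.0272) and the ribonuclease subunit Rnaseh2a (0.47, adjusted p = 0.0373) rose as well, and kept the call in 19, 17 and 9 of 24 alternatives. With 1 library left out, Cdc25b lost it without unwounded total replicates 2 or 3 or wounded total replicates 2 or 3, Btg1 without any 1 unwounded total replicate or wounded total replicate 1, and Rnaseh2a without any library except wounded total replicate 1. In the cortical fraction 3 of the 136 tested genes of these lists fell (2.21%, against 0.884% of all genes) and 0 rose (against 1.6%): Cdk6 (-0.63, adjusted p = 0.00779), Tk1 (-0.40, adjusted p = 0.0477) and the pocket protein gene Rbl1 (-0.63, adjusted p = 0.0358). Cdk6 kept this call in all 24 alternatives, Tk1 in 11 and Rbl1 in 15. Cortical Cdkn1a (-0.26, adjusted p = 0.135) and Cdkn1b (0.14, adjusted p = 0.567) did not pass, and Cdkn1a passed without wounded total replicate 1 (0.0359). Cortical Ccnd1 (-0.51, adjusted p = 0.0643) and Myc (-0.62, adjusted p = 0.0991) did not pass, and both passed without wounded total replicate 1 (0.0212 and 0.00595). Without that library 17 of the 136 fell (12.5%, against 3.6% of all genes) and 3 rose (2.21%, against 5.47%). Of the 10 keratinocyte markers 4 rose and 1 fell in the total fraction, and 2 rose and 0 fell in the cortical fraction. Their summed level was 11100 to 12240 CPM in unwounded and 17710 to 20340 CPM in wounded total libraries, and 15590 to 15760 CPM against 21090 to 21400 CPM in cortical ones. Of the 8 tested markers of differentiated keratinocytes 2 rose in the total fraction, Ivl (0.72, adjusted p = 0.0465) and Sbsn (0.49, adjusted p = 0.0117), 1 fell, the transcription factor Grhl3 (-1.23, adjusted p = 0.0133), and the median was 0.46. In the cortical fraction 0 passed, with 1 higher and 1 lower at an unadjusted p under 0.05. These markers summed to 3060 to 3897 CPM in unwounded and 3109 to 5902 CPM in wounded total libraries, which overlap, and to 2470 to 2614 and 2824 to 2894 CPM in cortical ones, which do not. The part of either marker list in the falls, which are shares of each library, was not tested.

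**Figure D5:**
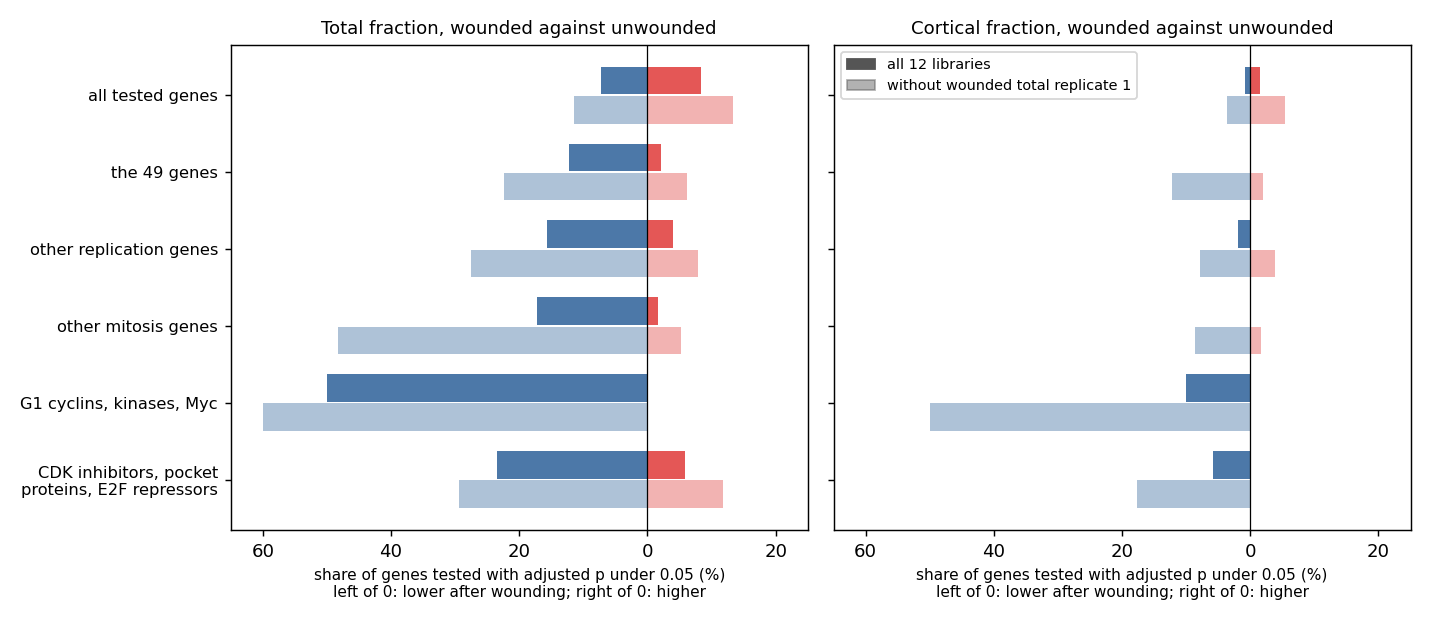
Share of genes (x axis, percent of those tested) called lower (left of 0, blue) or higher (right of 0, red) after wounding for all tested genes, the 49 genes and 4 lists of related genes (y axis), in the total (left panel) and cortical (right panel) fractions, with pale bars for the fit without wounded total replicate 1. For the 49 genes the total fraction shows 12.2% lower and 2.04% higher, and the pale bars 22.4% and 6.12%.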

How the data were processed

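The authors deposited counts of reads per gene and FPKM values for 12 libraries, 1 column per library. Per the submitters' processing notes, HISAT2 and CASAVA were used with mm10, and the counting tool and annotation are not given in the sources used here. Each deposited FPKM equals the count over the gene length and over a library size that was 0.825 to 1.10 times the column sum. Libraries were non-directional, per the labels. Unused per-sample columns numbered 0.

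Tests used edgeR 4.0.16 in R 4.3.3 (filterByExpr, TMM factors of 0.831 to 1.10, glmQLFit on all 12 libraries with 1 mean per group, two-sided glmQLFTest, Benjamini-Hochberg adjustment over 13571 genes, threshold 0.05). CPM are TMM-scaled. Limma 3.58.1 and DESeq2 1.42.0 served as alternatives. On simulated data, with 200 of 13088 genes changed in the total fraction, the edgeR fit recovered 96% of changes of size 2 and 81% of size 1 (log2), with 12 of 189 calls false.

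The genes and the lists beside them were chosen with earlier results of these data known. Named genes were Mki67, Pcna, Mcm2, Ccnb1, Cdk1 and Top2a in each fraction, the called members of each comparison (up to 8 per direction by p), up to 4 called genes per direction of each related list by p, and Cdkn1a, Cdkn1b, Ccnd1 and Myc; other genes named were chosen after their values were seen. Spans and strands of all 49 genes match GENCODE M21, from which exon overlaps and coding lengths were taken.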

Additional observations from a re-analysis of the deposited data

Results flagged for a closer look

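Of the 49 genes, Rhno1 is the one whose wound response differed between the fractions by a test of the difference itself. The cortical response minus the total response was 1.21 on the log2 scale (edgeR quasi-likelihood test, adjusted p = 0.0498). All 3 wounded libraries were lower than all 3 unwounded ones in the total fraction, and all 3 were higher in the cortical fraction. Over 23 alternatives the difference ran from 0.99 to 1.36 and the adjusted p from 2.24e-04 to 0.238. With 3 libraries per group, no library was tested as an outlier within its group.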

How the results depend on the processing

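Of the 49 genes, 7 were called for wounding in the total fraction. A fit to only the groups compared called 2 (4.08%, against 9.25% of all genes) and voom with quality weights 17 (34.7%, against 38.4%), and leaving out each library in turn gave 4 to 14 (all genes 7.99% to 24.9%). In the cortical fraction 0 were called, against 2 with DESeq2 (4.08%, all genes 5.42%), 4 without a filter (8.16%, 2.59%), 10 in a fit to only the groups compared (20.4%, 11.3%) and 7 with voom (14.3%, 9.7%), and 0 to 7 with a library left out (all genes 0.767% to 9.07%). The difference between the responses had 1 call. It had 0 with RLE factors (all genes 0.125%), with limma-trend on FPKM plus 1 or plus 0.1 (0.0737% each) and with the gene length trend removed (0.221%). It had 2 with voom (4.08%, all genes 6.3%), and 0 to 1 with a library left out (all genes 0.0284% to 2.93%). Cortical against total in unwounded cells had 6 calls, against 14 in a fit to only the groups compared (28.6%, all genes 23.7%), 19 with voom (38.8%, 27.3%) and 2 to 16 with a library left out (all genes 6.69% to 22.4%). In wounded cells it had 8, against 16 with library size alone (32.7%, all genes 20.1%), 20 with voom (40.8%, 32.7%) and 4 to 14 with a library left out (all genes 7.66% to 24.7%). The lowest of these came without unwounded total or cortical replicate 2 (2 calls each) in unwounded cells and without wounded total replicate 2 (4) or wounded cortical replicates 2 or 3 (5 each) in wounded cells, and the highest without wounded total replicate 1. The cause of these changes was not tested. The estimate for Mki67 in the total fraction changed sign with the length trend removed (0.066), without unwounded total replicate 3 (0.022) and without wounded total replicate 2 (0.010), and it ran from -0.252 to 0.022 with a library left out. Voom with quality weights called it lower (-0.280, adjusted p = 0.0268). The median of the 49 genes in the total fraction stayed between -0.28 and -0.08.

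With the replicate number as a block the counts were 6, 0, 0, 6 and 7 in the order above, and the adjusted p of the Rhno1 difference was 0.121. Of all 13571 genes tested, the block fit called 1075 higher and 963 lower, 173 and 103, 1 and 9, 859 and 998, and 973 and 1012. Deviations of same-numbered libraries correlated at -0.0508 to 0.219 over 18 pairs, with 2 above 0.1. Those of libraries with different numbers correlated at -0.222 to 0.159 over 36 pairs, with 1 above 0.1. Whether the numbers pair the libraries cannot be told from these values, and the main fit treats the libraries as independent. Ccne2 had as few as 8 counts in a library, which limits its test.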
